A study of Mus musculus with 6 samples.

Results

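The MHC class I antigen processing genes described here are 10 genes chosen by name: the immunoproteasome subunits Psmb8, Psmb9 and Psmb10, the peptide transporter genes Tap1 and Tap2, the loading factor Tapbp, the trimming enzyme Erap1, the light chain B2m and the heavy chain genes H2-Q4 and H2-T10. They are 10 of 19938 genes measured. The rule that names them uses no expression value, but they were chosen with earlier results of these data known. The series set 3 arrays of L1CAM cells against 3 arrays of control cells. Both groups were lung endothelial cells of the C57BL/6 mouse strain, grown to confluence over 4 days in medium with 20% fetal bovine serum. L1CAM cells carried, by stable transfection, the pcDNA3.1/Hygro(-) plasmid with full-length mouse L1CAM (a cell adhesion molecule, spelled LICAM in that label), and control cells the same plasmid without an insert. No label says whether either line was 1 clone or a pool, and p-values therefore cover only differences between the replicate cultures. In this comparison 4 of the 10 members rose in L1CAM cells (Erap1, Psmb10, Tapbp and B2m), against 6.85% of all genes tested, 0 were called lower, against 8.19%, and 6 did not pass. A gene was called at a limma p under 0.05 after adjustment over all genes. By step of the pathway, 1 of 3 immunoproteasome subunits, 0 of 2 transporter genes and 1 of 3 chain genes rose. Both the loading and the trimming factor rose. The 4 calls were not equally firm. Of the 6 fits that each left out 1 array, Erap1 was called in 6, Psmb10 in 5, Tapbp in 2 and B2m in 1.

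MHC class I molecules show peptides from the inside of a cell to CD8 T cells. Proteasomes cut proteins into peptides, and under interferon the catalytic subunits of the standard proteasome are replaced by the inducible ones encoded by Psmb8, Psmb9 and Psmb10. The TAP transporter carries peptides into the endoplasmic reticulum, where ERAP1 (called ERAAP in mice) trims them and tapasin, the product of Tapbp, helps load them onto a heavy chain paired with beta-2-microglobulin. Endothelial cells carry class I molecules constitutively and raise them in response to interferons.

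Promoter windows of members are shown because 4 of them moved in the same direction and because the Psmb9 and Tap1 genes lie head to head. The RefSeq table (GRCm38.p6) held a window of 300 bases, from 250 bases before the annotated start to 50 after it, for 8 of the 10 members. Windows are given for the 4 members that rose and for Tap1. They are those of Erap1 (chr13:74639603-74639902, plus strand), B2m (chr2:122147437-122147736, plus strand), Psmb10 (chr8:105938343-105938642, minus strand), Tapbp (chr17:33919228-33919527, plus strand) and Tap1 (chr17:34187306-34187605, plus strand). Capitals mark matches, on either strand, to the core of the interferon-stimulated response element (GAAA, any 2 bases, GAAA) or to the kappaB motif (GGG, any 2 bases, TTTCC).
Erap1: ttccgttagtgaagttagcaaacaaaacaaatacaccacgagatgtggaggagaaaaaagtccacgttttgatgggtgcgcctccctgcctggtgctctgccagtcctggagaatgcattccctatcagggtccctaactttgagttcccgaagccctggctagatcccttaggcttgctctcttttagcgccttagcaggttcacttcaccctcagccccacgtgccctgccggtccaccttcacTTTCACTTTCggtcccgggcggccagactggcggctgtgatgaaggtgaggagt
B2m: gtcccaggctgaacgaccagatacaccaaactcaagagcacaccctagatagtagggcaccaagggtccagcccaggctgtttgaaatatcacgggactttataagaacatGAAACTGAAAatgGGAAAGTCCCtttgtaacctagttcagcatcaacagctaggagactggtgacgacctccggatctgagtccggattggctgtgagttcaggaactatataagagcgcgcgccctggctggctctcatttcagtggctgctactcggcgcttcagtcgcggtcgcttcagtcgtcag
Psmb10: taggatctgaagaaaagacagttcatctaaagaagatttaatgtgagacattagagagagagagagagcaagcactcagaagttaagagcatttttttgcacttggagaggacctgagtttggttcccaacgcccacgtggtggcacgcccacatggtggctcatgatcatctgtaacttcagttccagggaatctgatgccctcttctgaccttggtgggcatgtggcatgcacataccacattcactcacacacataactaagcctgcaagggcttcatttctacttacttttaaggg
Tapbp: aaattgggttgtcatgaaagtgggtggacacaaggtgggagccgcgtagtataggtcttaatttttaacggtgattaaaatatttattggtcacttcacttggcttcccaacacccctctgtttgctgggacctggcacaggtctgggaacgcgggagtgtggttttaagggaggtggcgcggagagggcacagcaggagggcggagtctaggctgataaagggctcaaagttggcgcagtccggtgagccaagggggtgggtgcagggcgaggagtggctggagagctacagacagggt
Tap1: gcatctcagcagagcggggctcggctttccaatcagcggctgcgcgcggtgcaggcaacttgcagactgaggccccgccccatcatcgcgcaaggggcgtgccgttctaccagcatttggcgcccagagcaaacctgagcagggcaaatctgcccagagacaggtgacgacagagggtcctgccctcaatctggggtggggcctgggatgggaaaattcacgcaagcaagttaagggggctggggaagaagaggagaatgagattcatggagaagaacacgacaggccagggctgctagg
Of the 8 windows, those of Erap1 and B2m held the exact response element core, against 3.44% of the 32851 RefSeq promoter windows. Only the exact letters given were searched for, so variant forms of the element, in H2-Q4 or any other window, were not looked for. In Erap1 the match was on the minus strand and spanned the annotated start, from base -4 to base 5 with the start base counted as 0, and in B2m it lay on the plus strand from base -139 to -130. The kappaB motif was found in B2m, from base -126 to -117, and in H2-Q4, against 1.63% of all windows. The GAS motif TTCNNNGAA was found in Psmb8 (8.3% of all windows), and the CCAAT box motif ATTGG in B2m, H2-Q4, Psmb9, Tap1 and Tapbp (37.4% of all windows). The Tap1 and Psmb9 windows, read from opposite strands, shared 275 of their 300 bases, and their ATTGG match is the same site read from both strands. None of these matches overlapped another motif searched. Of the 4 members that rose, Psmb10 and Tapbp held neither of the motifs marked by capitals. The motifs were chosen after the windows had been seen, so the shares of all windows are a description and not a test. A match describes letters in a window and is not a measured binding site.

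Several facts of the whole series bear on these values. L1cam measured 10.49, 10.60 and 10.73 on the L1CAM arrays, against 6.50, 6.77 and 7.31 on the control arrays (log2 expression after robust multi-array averaging, RMA, the scale of all levels below), so the arrays lay on the sides their labels give. L1CAM replicate 1 stood apart: it correlated with the other L1CAM arrays at 0.9948 and 0.9951 across genes, and with control replicate 1 at 0.9952, while L1CAM replicates 2 and 3 correlated with each other at 0.9986 and control arrays at 0.9982 to 0.9986. All 11 proliferation genes measured were called lower in L1CAM cells, with a median deviation from the control mean of -0.42, -1.74 and -1.71 on L1CAM replicates 1, 2 and 3, against -0.24, 0.13 and 0.09 on control replicates 1, 2 and 3. The count was 11 without L1CAM replicate 1, 2 without control replicate 1 and 0 when any other single array was left out. The 12 endothelial markers listed, Cdh5, Pecam1 and Kdr among them, read above the array median (6.55 to 6.58) on all 6 arrays. Vwf (6.82 to 6.88) and Cldn5 (6.79 to 7.13) lay only slightly above that median. Levels near or below that median may be background, since no detection calls were used.

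Of the inducible proteasome subunits 1 of 3 passed the test. Psmb10, the inducible counterpart of Psmb7, was higher in L1CAM cells by 0.55 on the log2 scale, or 1.47-fold, whereas Psmb8 and Psmb9 did not pass the test. In bulk RNA, fewer cells with a transcript and less of it per cell cannot be told apart, here or for any gene below. Psmb10 (chromosome 8, probe set 10581378) measured 8.34, 7.97 and 8.21 on the L1CAM arrays, against 7.65, 7.64 and 7.58 on the control arrays. All L1CAM arrays lay above all control arrays, and the L1CAM arrays spread more widely, with means of 8.18 ± 0.19 in L1CAM cells and 7.62 ± 0.04 in control cells (SD, n = 3 arrays each). The difference had a standard error of 0.09 and a limma adjusted p of 0.00913, over all genes tested. Leaving out control replicate 3 ended the call (adjusted p = 0.0501), with a difference of 0.53.

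Psmb8, the inducible counterpart of Psmb5, measured 5.49, 5.57 and 5.63 on the L1CAM arrays, against 5.67, 5.52 and 5.63 on the control arrays. All 6 values were below the array medians and the groups overlapped, so expression above background was not shown for this probe set in either group. The difference of -0.04 had a 95% interval of -0.20 to 0.11 (limma adjusted p = 0.73). Psmb9, the inducible counterpart of Psmb6, measured 7.61, 7.59 and 7.55 on the L1CAM arrays, against 7.59, 7.62 and 7.63 on the control arrays. These arrays also overlapped, within a narrow range. Its difference was -0.03 with an interval of -0.15 to 0.09 (limma adjusted p = 0.74), and it took the opposite sign when the arrays were quantile normalized again.

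**Figure D1:**
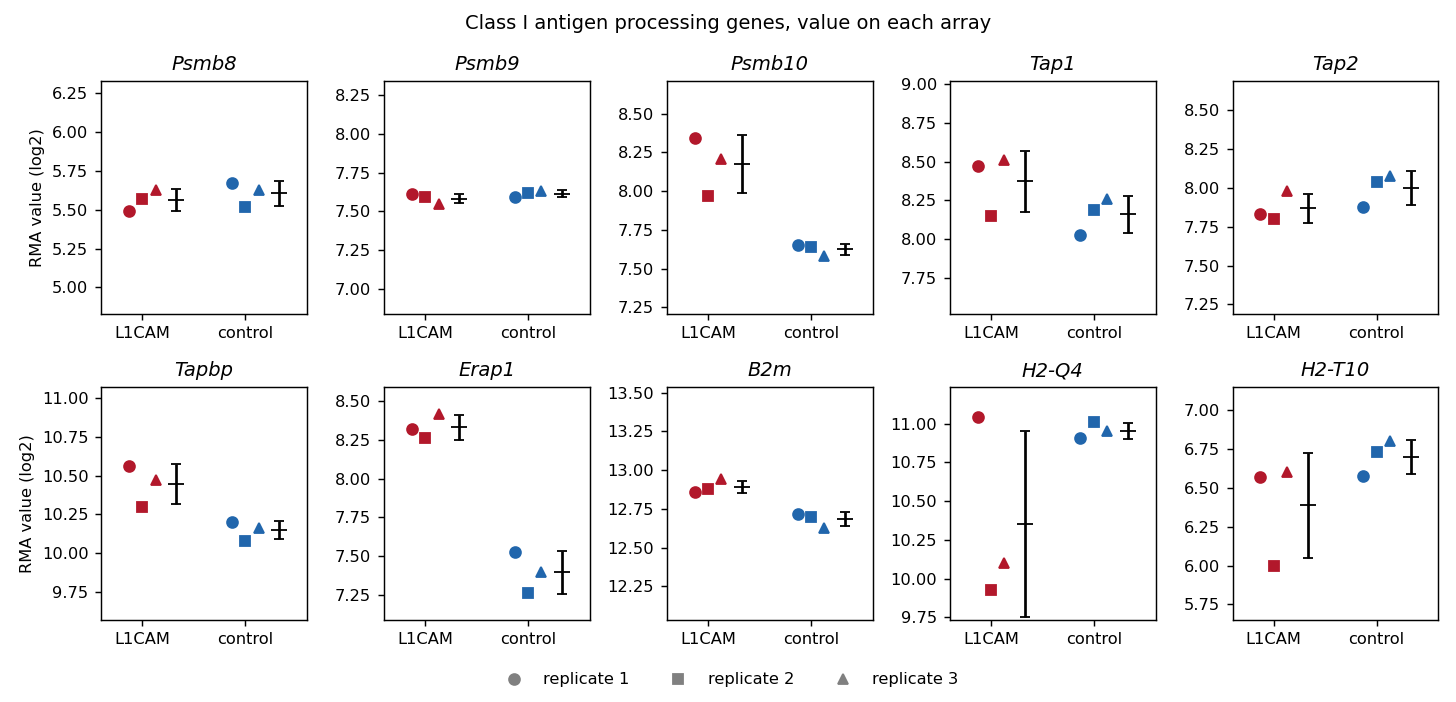
RMA values (log2, y axis) of the 10 members on each array, L1CAM arrays in red left of control arrays in blue, with symbols for replicate numbers and bars for mean and SD (n = 3 arrays per group). Every panel spans 1.5 log2 units. The groups separate for Psmb10, Tapbp, Erap1 and B2m, and in H2-Q4 L1CAM replicate 1 sits at 11.04, just above the control arrays.

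The standard subunits that the inducible ones replace did not pass the test. Psmb5 differed by 0.08, Psmb6 by 0.13 and Psmb7 by 0.04 (limma adjusted p = 0.42, 0.27 and 0.72), and 0 of these 3 genes had an unadjusted p under 0.05. Inducible and standard subunits were also compared within each array. Psmb10 minus Psmb7 was -2.65, -3.02 and -2.79 on the L1CAM arrays, against -3.26, -3.38 and -3.36 on the control arrays, a shift of 0.52 with no overlap. Psmb8 minus Psmb5 shifted in the opposite direction, by -0.12, also with no overlap. That shift is not read as a change of Psmb8, since that gene was not shown above background. For Psmb9 minus Psmb6 the shift was -0.17 and the groups overlapped. In an exact two-sided permutation test over the arrays the p-values were 0.1 for the Psmb10 and Psmb8 pairs and 0.2 for the Psmb9 pair (0.15, 0.15 and 0.2 adjusted over the 3 pairs). The smallest p that 3 against 3 arrays allow is 0.1, so none of these shifts could pass the threshold of 0.05. Only the shift within a pair is read here, since levels of different probe sets are not comparable.

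The transporter genes did not pass the test. Tap1, which encodes a subunit of the peptide transporter, measured 8.47, 8.15 and 8.51 on the L1CAM arrays, against 8.03, 8.19 and 8.26 on the control arrays. L1CAM replicate 2 lay among the control arrays, and the other L1CAM arrays lay above them. The difference was 0.21, with a 95% interval of -0.03 to 0.46 (limma adjusted p = 0.24). Tap2, its partner subunit, measured 7.83, 7.80 and 7.98 on the L1CAM arrays, against 7.88, 8.04 and 8.08 on the control arrays, which overlapped. Its difference was -0.13, with an interval of -0.31 to 0.05 (limma adjusted p = 0.32). Neither gene was called when any single array was left out.

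Both members that trim or load peptides, Erap1 and Tapbp, were higher in L1CAM cells. Erap1, the aminopeptidase that trims peptides in the endoplasmic reticulum, showed the largest difference of the members. It measured 8.32, 8.26 and 8.42 on the L1CAM arrays, against 7.53, 7.26 and 7.40 on the control arrays (chromosome 13, probe set 10406205). The gap between the groups was several times the spread within either, with means of 8.33 ± 0.08 in L1CAM cells and 7.40 ± 0.14 in control cells (SD, n = 3 arrays each). The 0.94 log2 difference (SE 0.08), a 1.91-fold rise, had a limma adjusted p of 0.000773, and the gene was called whichever array was left out (0.87 to 1.00). Of all genes tested, 97.9% had a smaller absolute difference.

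Tapbp, which encodes the loading factor tapasin, measured 10.56, 10.30 and 10.47 on the L1CAM arrays, against 10.20, 10.08 and 10.16 on the control arrays. The groups did not overlap, but the gap between L1CAM replicate 2 and control replicate 1 was small. The difference was 0.30 (SE 0.08), or 1.23-fold (limma adjusted p = 0.0391). It was still called without L1CAM replicate 1 or 2, and not without L1CAM replicate 3 (adjusted p = 0.128) or control replicates 1, 2 or 3 (adjusted p = 0.0783, 0.143 and 0.114). Both probe sets annotated with Rps3a1 as well as Tapbp gave differences of -0.07 and -0.06 and are not taken as measures of Tapbp.

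**Figure D2:**
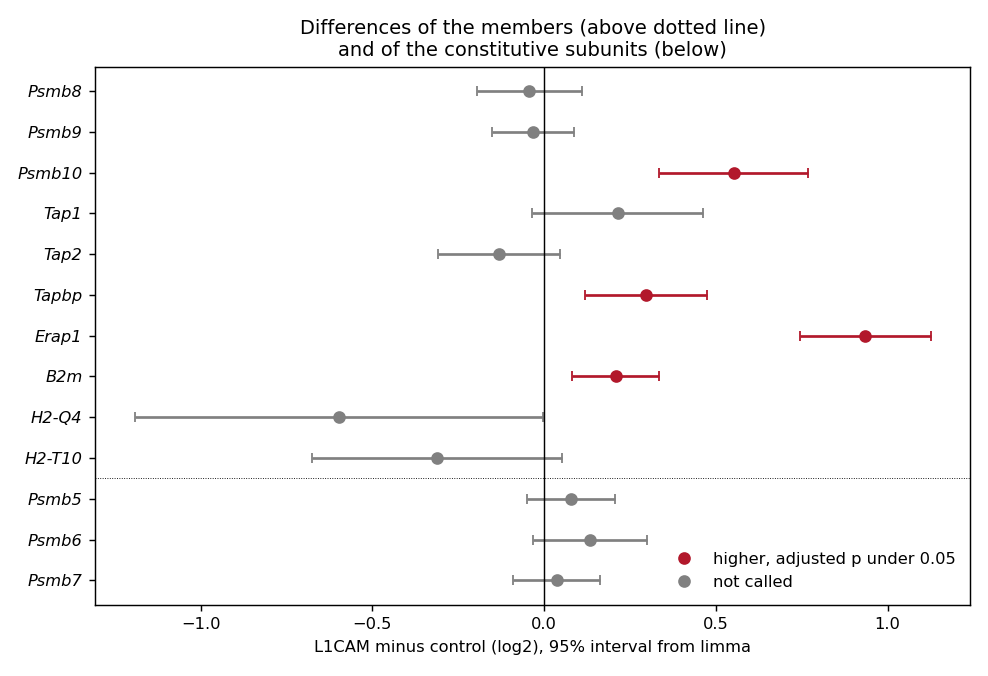
Difference in L1CAM cells minus control cells (log2, x axis) with its 95% interval for the 10 members, above the dotted line, and for the standard subunits Psmb5, Psmb6 and Psmb7, below it (n = 3 arrays per group). Red points passed the limma test at an adjusted p under 0.05: Psmb10 (0.55), Tapbp (0.30), Erap1 (0.94) and B2m (0.21).

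Among the chains of the class I molecule, the light chain gene rose and the single-gene heavy chain probe sets did not pass the test. B2m, which encodes beta-2-microglobulin, measured 12.86, 12.88 and 12.94 on the L1CAM arrays, against 12.72, 12.70 and 12.63 on the control arrays. The groups did not overlap and both had a narrow spread. The difference was 0.21 (SE 0.05), or 1.16-fold (limma adjusted p = 0.0416). The readings lay near the top of the scale, where the highest values of the arrays were 13.7 to 13.8. B2m was called without L1CAM replicate 1 and in no other fit that left out an array, where its difference was 0.18 to 0.22: adjusted p was 0.105 without L1CAM replicate 2, 0.146 without L1CAM replicate 3, and 0.0836, 0.117 and 0.142 without control replicates 1, 2 and 3. It also lost the call with the replicate number as a block (adjusted p = 0.102).

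H2-Q4, a class I heavy chain gene of the Q region, measured 11.04, 9.93 and 10.10 on the L1CAM arrays, against 10.91, 11.01 and 10.95 on the control arrays. L1CAM replicates 2 and 3 read below every control array and L1CAM replicate 1 above them. The means were 10.36 ± 0.60 in L1CAM cells and 10.95 ± 0.05 in control cells (SD, n = 3 arrays each), a difference of -0.60 that did not pass (SE 0.26, limma adjusted p = 0.17). Without L1CAM replicate 1 the difference was -0.94 and passed (limma adjusted p = 6.21e-05), and it was -0.39 without L1CAM replicate 2, so the call depended on a single array. Among the L1CAM arrays, the same array had the smallest deviation of proliferation genes given above, and the part of this in the H2-Q4 values was not tested.

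H2-T10, a nonclassical class I gene of the T region, measured 6.57, 6.00 and 6.60 on the L1CAM arrays, against 6.58, 6.73 and 6.80 on the control arrays. Its values lay close to the array medians, and here L1CAM replicate 2 was the lowest. The difference of -0.31 did not pass (95% interval -0.68 to 0.05, limma adjusted p = 0.24). It was -0.12 without L1CAM replicate 2. Whether the probe sets of H2-Q4 and H2-T10 also read related class I genes was not tested.

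Probe sets annotated with several class I genes were set apart, since their probes cannot be given to 1 gene. They were tested in a fit of 21559 genes and probe sets, of which 3143 were called in either direction. Of 7 such class I probe sets, 1 rose and 0 were called lower. In the fit of the genes alone 6.85% were called higher and 8.19% lower. A single call among 7 is not read as a trait of these probe sets as a group. The one that rose, 10450075, is annotated to H2-K1, LOC547349 and H2-D1, where H2-K1 and H2-D1 are the classical heavy chains of this strain. It measured 8.44, 8.84 and 9.19 on the L1CAM arrays, against 7.93, 7.93 and 7.87 on the control arrays. No L1CAM array came near the control range, although the L1CAM arrays differed among themselves. Its difference was 0.91 (SE 0.16), or 1.88-fold (limma adjusted p = 0.0120), and the smallest difference when single arrays were left out was 0.73, without L1CAM replicate 3.

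A second probe set with the same 3 gene names, 10444780, measured 12.59, 12.51 and 12.57 on the L1CAM arrays, against 12.44, 12.49 and 12.44 on the control arrays. The arrays did not overlap, but the difference was 0.10 and did not pass (95% interval -0.02 to 0.22, limma adjusted p = 0.25). Both probe sets for the classical heavy chains therefore gave a higher mean in L1CAM cells, of very different size, and which gene each one reads was not tested.

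The probe set of H2-Q6 and H2-Q8 measured 9.25, 8.09 and 8.52 on the L1CAM arrays, against 9.33, 9.42 and 9.35 on the control arrays. As in H2-Q4, L1CAM replicate 1 lay close to the control arrays and replicates 2 and 3 well below them. Unlike in H2-Q4, replicate 1 was also below every control array, so the groups did not overlap. The difference of -0.74 did not pass (SE 0.25, limma adjusted p = 0.0923), and was -1.06 without L1CAM replicate 1 and -0.48 without L1CAM replicate 2. The probe set of H2-T9, H2-T22 and H2-T10 measured 9.81, 9.38 and 9.78 on the L1CAM arrays, against 9.82, 10.08 and 10.07 on the control arrays. These did not overlap either, though the gap was very small. It differed by -0.33 and did not pass (limma adjusted p = 0.14), with L1CAM replicate 2 the lowest, and by -0.19 without that array. The remaining 3, for H2-T23 and H2-T-ps, for H2-Q1 and H2-Bl, and for H2-T3 and H2-T18, differed by -0.13, 0.03 and 0.19 and did not pass (limma adjusted p = 0.38, 0.81 and 0.22).

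**Figure D3:**
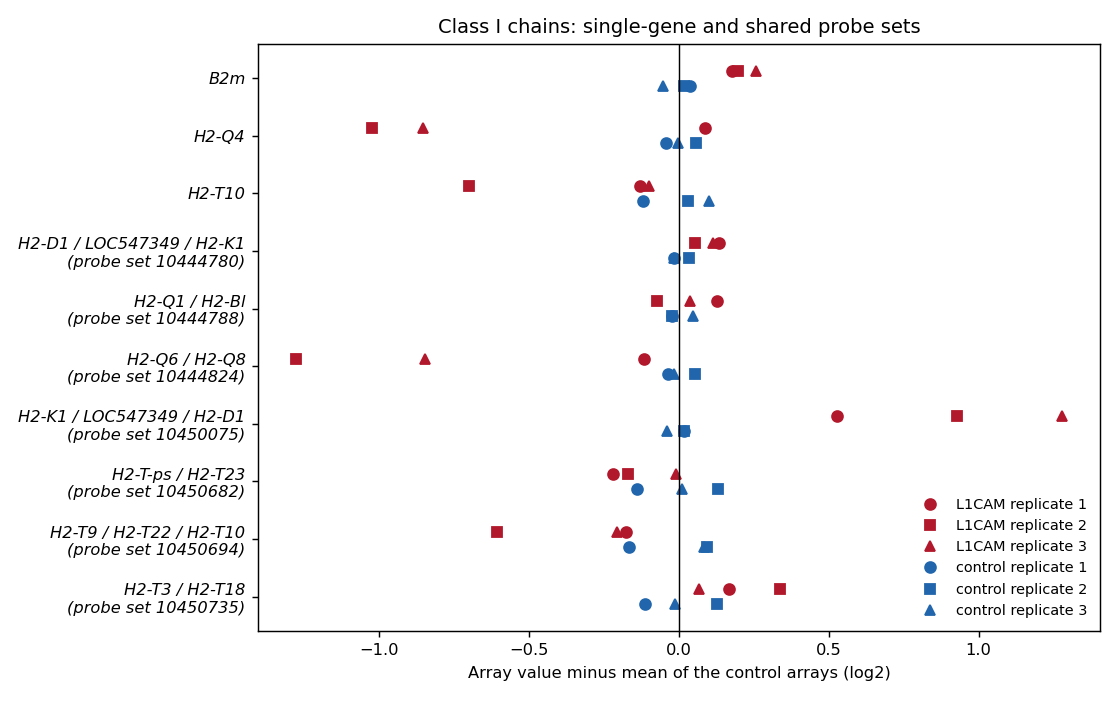
Deviation of each array from the control mean (log2, x axis) for the light chain gene B2m, both single-gene heavy chain probe sets and the 7 shared class I probe sets; red symbols are L1CAM arrays, drawn above the blue control arrays, and shapes give replicate numbers. L1CAM replicates 2 and 3 lie far below the control arrays for H2-Q4 and for H2-Q6 / H2-Q8, and all L1CAM arrays lie above them for probe set 10450075.

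Across the pathway, 4 of the 10 members were called higher, against 6.85% of all genes tested, and 0 lower, against 8.19%. Counting both directions, the share of all genes called was 15.0%. The arrays of the 2 groups did not overlap in 4 members, against 34.6% of all genes. In each of these members every L1CAM array was above every control array, against 18.6% of all genes. The median difference was 0.09 over the members and 0.02 over all genes, and the median absolute difference 0.26 and 0.10. Signs were split, with 5 members above 0 and 5 below. The number called higher was 4 without L1CAM replicate 1, 3 without L1CAM replicate 2, 2 without L1CAM replicate 3, 2 without control replicate 1 or 2 and 1 without control replicate 3, and 1 member was called lower without L1CAM replicate 1. All genes called, in either direction, moved as well: 4952, 1366 and 1238 without L1CAM replicates 1, 2 and 3. They numbered 1809, 1033 and 1064 without control replicates 1, 2 and 3, against 2999 with every array kept. The changes in the member counts are therefore not read as particular to the members. Erap1 was the only member called in all 6 of these fits.

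**Figure D4:**
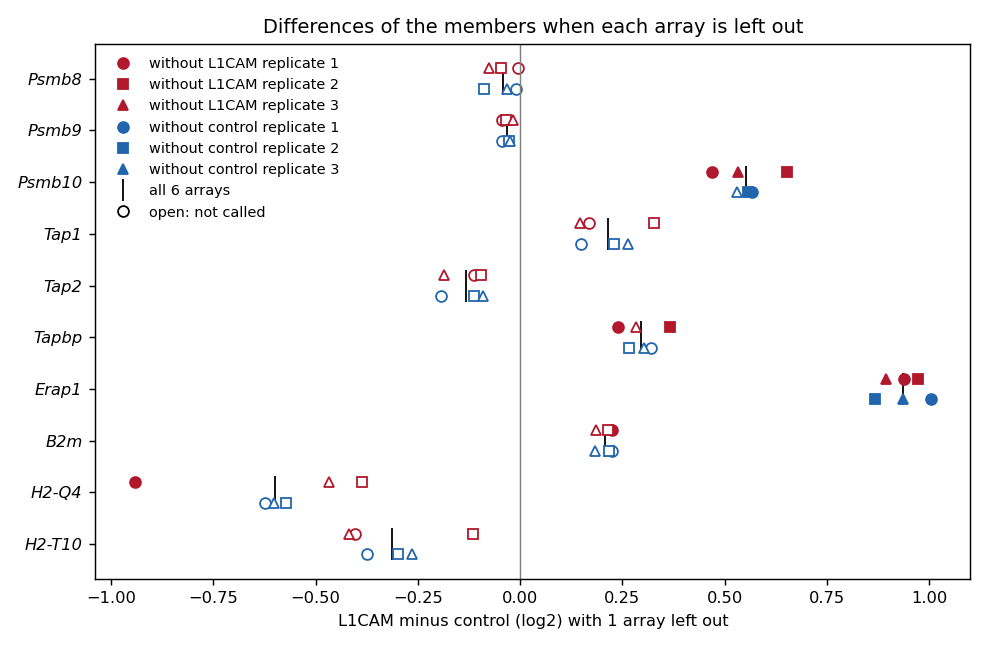
Difference of each member in L1CAM cells minus control cells (log2, x axis) when 1 array is left out, red for a left-out L1CAM array and blue for a left-out control array, with the value over all 6 arrays as a black bar; filled symbols passed the limma test. Erap1 stays filled throughout (0.87 to 1.00), and H2-Q4 is filled only without L1CAM replicate 1 (-0.94).

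Of 49 other genes of class I peptide supply, in 4 lists, 7 rose and 0 fell, so that 14.3% were called higher, against 6.85% of all genes, but 1 of the 7 was called whichever array was left out. Of 11 other core proteasome subunits 1 rose and 0 fell, namely Psma2 (0.20, limma adjusted p = 0.0458), with a list median of 0.03. Of 9 activator and assembly genes 3 rose and 0 fell, with a median of 0.18. These were Psme2, a subunit of the interferon-inducible PA28 activator, by 0.40 (limma adjusted p = 0.00521), and the assembly chaperones Psmg2 (0.29) and Psmg1 (0.22). Psme1, the partner of Psme2, differed by -0.01 (95% interval -0.19 to 0.17), with a sign that changed between fits, and a probe set shared by Psme2 and Psme2b rose by 0.63. Of 21 genes of the regulatory particle 1 rose (Psmd11, 0.34) and 0 fell, with a median of 0.08. Of 8 cytosolic peptidases 2 rose, Blmh (0.31), bleomycin hydrolase, and Prep (0.25), prolyl endopeptidase, and 0 fell, with a median of 0.08. Psme2 was called whichever array was left out. Psma2, Psmg1, Psmg2 and Prep kept their calls only without L1CAM replicate 1, Psmd11 only without L1CAM replicate 1 or control replicate 1, and Blmh lost its call without control replicate 3.

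In the endoplasmic reticulum, 1 of 9 folding and loading genes rose and 1 fell, with a median of 0.02. Tapbpl, a relative of tapasin that edits class I peptides, fell to 7.39 ± 0.08 in L1CAM cells, against 7.78 ± 0.07 in control cells (SD, n = 3 arrays each), a difference of -0.39 (limma adjusted p = 0.00904) that was called whichever array was left out. It thus moved in the opposite direction to Tapbp. Ero1a, an oxidase of the endoplasmic reticulum, rose by 0.65 (limma adjusted p = 0.0403), a call that held only without L1CAM replicate 1 when single arrays were left out. Calr and Pdia3, the calreticulin and disulfide isomerase of the loading complex, differed by -0.12 and -0.13 and did not pass (limma adjusted p = 0.18 and 0.26), although Calr passed with a variance prior that follows intensity (limma adjusted p = 0.0434).

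Of 20 other class I heavy chain genes and relatives with a probe set of their own, 0 rose and 1 fell, with a median of 0.03, and 16 of the 20 read below the array median on every array. The gene that fell was Mr1, which presents vitamin B metabolites to MAIT cells. It was at 10.23 ± 0.24 in L1CAM cells and 11.00 ± 0.08 in control cells (SD, n = 3 arrays each), a difference of -0.77 (limma adjusted p = 0.00621), called whichever array was left out. Of 12 class II presentation genes 0 were called, with 0 at an unadjusted p under 0.05, and 9 read below the median on every array. H2-Oa and H2-DMa, with the smallest p-values there, differed by 0.12 and 0.18 (limma adjusted p = 0.45 each), and Ciita, the class II transactivator, differed by 0.05 (limma adjusted p = 0.65).

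Regulators known to act on class I promoters moved in both directions. Of 13 measured, 1 rose and 2 fell, with a median of 0.07. Rfx5, a subunit of the RFX complex that binds class I and class II promoters, fell by 0.77 (limma adjusted p = 0.00432), and Irf8 fell by 0.39 (limma adjusted p = 0.00489), both whichever array was left out. Irf8 read 6.81 ± 0.04 in L1CAM cells and 7.20 ± 0.05 in control cells (SD, n = 3 arrays each). These levels lay near the array median, so they may be partly background. Atf1 rose by 0.36 (limma adjusted p = 0.0255), a call kept only without L1CAM replicate 1 or control replicate 1. Nlrc5, the class I transactivator, differed by 0.17 and Irf1 by 0.27, and neither passed (limma adjusted p = 0.14 and 0.36). Nlrc5 passed without L1CAM replicate 1, at 0.22 (limma adjusted p = 0.0278), and with array weights, at 0.21 (limma adjusted p = 0.0273). The Irf1 difference was 0.09 without L1CAM replicate 1 and 0.44 without L1CAM replicate 2.

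Interferon genes give the setting of these values. Of 21 type I interferon response genes 17 rose and 0 fell, with a median difference of 1.63, against 0.09 for the class I members. Oasl2 (3.06), Ifit1 (2.45), Usp18 (2.26) and Ifih1 (2.21) had the largest rises, and each was called whichever array was left out. Of 16 genes listed for the interferon gamma response 6 rose and 1 fell, with a median of 0.20. Gbp3 (2.02), Cxcl10 (1.94), Gbp7 (1.85) and Cd274 (1.44) rose and Gbp4 fell by 0.60. Cd274, the checkpoint ligand PD-L1, held its call only without L1CAM replicate 1, at 1.86, and gave 1.13 without L1CAM replicate 3. Of 15 receptor and signalling genes 5 rose and 1 fell, with a median of 0.13. Irf7 (2.13), Stat2 (1.16) and Irf9 (0.90) rose beside Usp18, genes that are also in the type I list, and Ifnar1, a chain of the type I interferon receptor, fell by 0.32 (limma adjusted p = 0.00797).

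None of the 7 interferon ligand genes was called by limma (1 at an unadjusted p under 0.05), and 6 of them read below the array median on every array. Ifne and Ifna4, with the smallest p-values, differed by 0.19 and 0.17 (limma adjusted p = 0.125 and 0.210), and Ifnb1 and Ifng by 0.07 and -0.05. Ifne passed with array weights (limma adjusted p = 0.0492). Of 7 genes for class I related ligands and checkpoints, 2 rose and 2 fell, with a median of 0.04. Beside Cd274, Pvr, a ligand of NK and T cell receptors, rose by 0.87. H60b, a ligand of the NK cell receptor NKG2D, fell by 0.52 and Nectin2 by 0.60, both whichever array was left out, while Pvr lost its call without control replicate 2 (adjusted p = 0.0532).

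**Figure D5:**
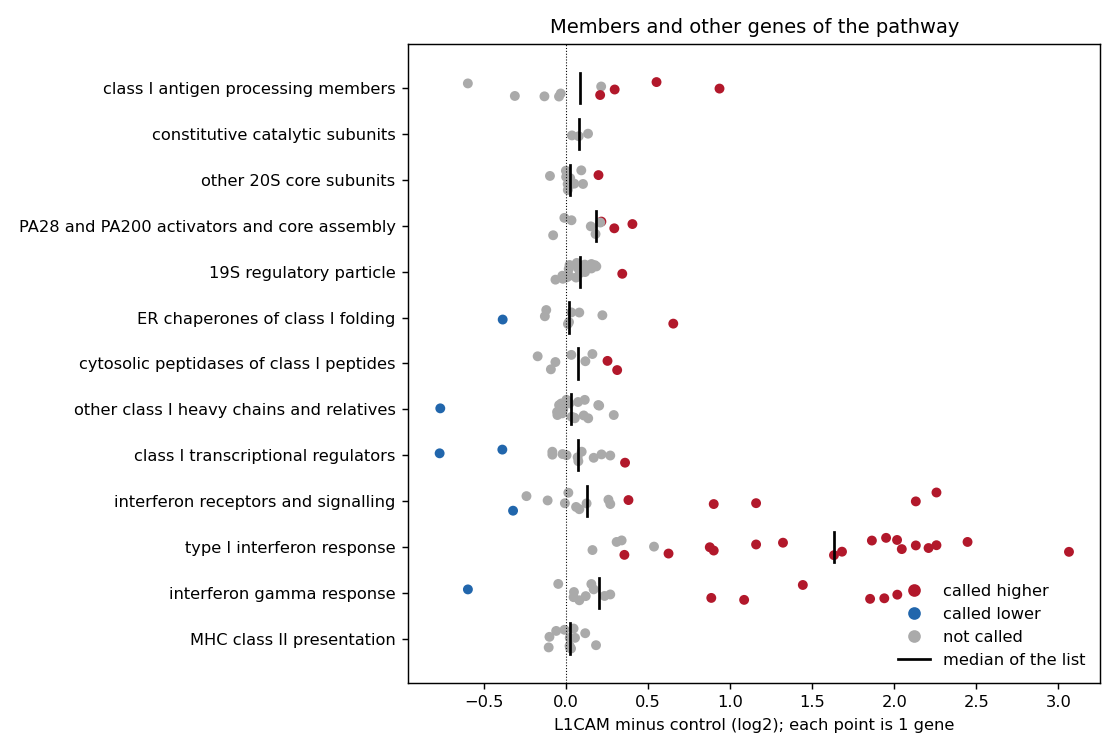
Difference in L1CAM cells minus control cells (log2, x axis) of each gene in the class I members and in 12 other lists (rows), with red points called higher, blue points called lower, grey points not called and a black bar at each list's median. The members span -0.60 to 0.94, and the type I interferon genes reach 3.06 with a median of 1.63.

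Markers of cells that carry much class I or immunoproteasome were read on the same arrays. Of 8 leukocyte markers 0 rose and 1, Lcp1, fell by 1.35, and the mean level of the list ranged from 6.28 to 6.66 on L1CAM arrays and from 6.53 to 6.66 on control arrays. Of 10 macrophage and dendritic cell markers 0 were called by limma (1 at an unadjusted p under 0.05), with means of 6.26 to 6.41 on L1CAM arrays and 6.31 to 6.47 on control arrays. Of 8 lymphocyte markers 0 were called (1 at an unadjusted p under 0.05), with means of 5.01 to 5.06 on L1CAM arrays and 5.07 to 5.09 on control arrays. Below the array median on all 6 arrays were 5 of the leukocyte markers, with Ptprc (CD45) among them, 8 of the macrophage and dendritic cell markers and 7 of the lymphocyte markers. Above it on all 6 arrays were Lcp1, Itgb2, Cd53, Cd68, Lyz2 and Cd3e. Itgb2, an integrin chain of leukocytes, measured 6.70, 8.02 and 8.06 on the L1CAM arrays, against 7.21, 7.26 and 7.36 on the control arrays, with L1CAM replicate 1 the lowest of the 6. The part of these markers in the values of the class I genes was not tested.

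Of 10 fibroblast and smooth muscle markers 1 rose (Cnn1, 0.23) and 0 fell, and of 10 lung epithelial markers 0 were called (0 at an unadjusted p under 0.05). Of 12 endothelial markers 0 rose and 1 fell (Cldn5, -0.22), and 9 had every L1CAM array below every control array, against 16.0% of all genes, with a list median of -0.08. Single arrays moved these counts. Without L1CAM replicate 1, 2 endothelial markers were called lower, and 1 fibroblast and smooth muscle marker and 1 leukocyte marker higher. Without any other single array 0 endothelial and 0 fibroblast and smooth muscle markers were called. Without control replicate 1, 1 macrophage and dendritic cell marker was called lower, and without control replicate 2, 1 lymphocyte marker.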

How the data were processed

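Total RNA from 6 cultures was hybridised to Affymetrix arrays. The deposited values are log2 expression per probe set, made by the authors with RMA. The submitters' processing notes name Affymetrix Expression Console 1.1 as the program. RMA corrects background, normalizes arrays and shrinks small differences of dim probe sets. The program's other settings and the genome build are not given in the sources used.

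Probe sets with 1 symbol in the platform annotation (21789 of 35512; 1621 had several, 12102 were not listed) were used, taking per gene the one with the highest mean, which left 19938 genes. Groups were compared with lmFit and eBayes of limma 3.58.1 (R 4.3.3), two-sided, with Benjamini-Hochberg adjustment over all genes and a threshold of 0.05. Differences are L1CAM minus control. Precision is limited by having 3 arrays a group. Scripts were tested on simulated data. Tables and figures used Python 3.11.15, pandas 2.3.3, scipy 1.17.1 and matplotlib 3.10.9.

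The members, lists and tests were chosen with earlier results of these data known, and the promoter motifs after the windows had been seen. Named genes are all members, shared class I probe sets, the standard subunits, fixed index genes, up to 4 called genes per list and direction (or the 2 of smallest p) and the 5 genes most like the members. Marker genes are given as counts and ranges, and the markers named singly were chosen after their values were seen.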

Additional observations from a re-analysis of the deposited data

How the results depend on the processing

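Erap1 and Psmb10 were called higher under all normalizations, filters and variance priors tried except that Psmb10 missed with an ordinary linear model (adjusted p = 0.0884). Over 18 alternatives, 158 of 179 member values kept their direction and side of the threshold, 18 lost the call, 2 gained it and 1 changed sign: the difference of Psmb9 was 0.0417 after repeated quantile normalization. The gains were those of H2-Q4, without L1CAM replicate 1 and with array weights (-0.82). Members called higher numbered 1 with an ordinary linear model, 0 by treat against a difference of 0.5, and 1 to 4 when each array was left out. Members called lower numbered 1 with array weights and 0 to 1 when each array was left out. The cause of these shifts was not tested. All genes called numbered 2999 in the fit reported, 581 with an ordinary linear model, 5191 with array weights, 152 by treat and 1033 to 4952 when each array was left out. Without each array in turn, the difference ranged from -0.0626 to 0.0665 for Psme1 (0.0090 without control replicate 3), from -0.0052 to 0.0752 for C230062I16Rik and from -0.0045 to 0.0487 for Acot7, and that of Acot7 was -0.0087 after repeated quantile normalization. The alternative that tested probe sets with several symbols beside the genes was chosen after seeing the data and called 4 members. Deviations of same-numbered arrays correlated at -0.10, -0.10 and -0.03, so the replicate numbers were not taken as pairs; with the replicate block 3 members and 2067 genes were called. Depth does not apply to arrays, and Psmb8 and H2-T10 had readings below the array median.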

Other observations

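On chromosome 17, where most members lie, 130 other measured genes stand between Tapbp and H2-M2 in the RefSeq order. Of these, 5 were called higher and 9 lower (10.8%, against 15.0% of all genes), with a median difference of 0.02. The largest differences among them were those of D17H6S56E-5 (-1.34) and Ier3 (0.83), named after their values were seen. Over the 6 arrays, the mean of the members' standardised values correlated most, among 11400 genes that passed the filter on dim values, with Chst7 (r = 0.96), C230062I16Rik, Ndufab1, Pdzd11 and Acot7 (r = 0.95 each), none of which was called. Their differences were 0.06, 0.03, 0.03, 0.04 and 0.02. The members' mean standardised value was 0.43, -0.40 and 0.39 on L1CAM replicates 1, 2 and 3. On control replicates 1, 2 and 3 it was -0.27, -0.21 and 0.06, so it did not separate the groups. Likeness to this mean is not likeness to the members that rose, and the correlations are a description only.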
